A study of Mus musculus with 8 samples.

Results

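The genes for the pore-forming and auxiliary subunits of voltage-gated and related ion channels were compared between bone metastases and primary tumours of the 4T1.2 model. Members were all genes whose single symbol in the platform annotation begins with Kcn (potassium channels), with Scn and a digit (sodium channels), with Cacn (voltage-gated calcium channels) or with Hcn and a digit from 1 to 4 (hyperpolarization-activated channels). The rule found 121 genes, measured by 254 probe sets, of 18193 genes measured in all. Of these, Kcnq1ot1, Kcnmb4os1 and Kcnmb4os2 matched by symbol but are transcripts from the strand opposite to a channel gene, and do not encode a subunit. A gene with several probe sets was read from the brightest of them by mean over the 8 arrays, and its other probe sets served as a check.

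Voltage-gated channels open and close with the membrane potential and give neurons and muscle their electrical signals. Sodium channels carry the upstroke of the action potential, potassium channels repolarize the membrane and set its resting level, and calcium channels couple the electrical signal to transmitter release and contraction. Auxiliary subunits control the delivery of the pore subunits to the membrane and their gating. Sensory neurons, whose axons innervate bone, use a characteristic set of sodium channels, whereas epithelial cells, macrophages and lymphocytes rely mainly on potassium channels that hold the resting potential.

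4T1.2 is a line of mouse mammary carcinoma cells that reaches bone from a mammary gland tumour in hosts of its own strain, here Balb/c. The 8 one-colour arrays held 4 primary mammary gland tumours and 4 spine metastases, and the series' text states that both tumours of a number were taken from 1 mouse, so that the numbers 1 to 4 stand for 4 mice. No treatment, transgene or age is given in the labels, and both groups were grown from the same line. The labels state that tumour epithelial cells were isolated from both sites, but no gate or sort is described there.

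Values are log2 signals, and folds are log2 differences of group means, metastasis minus primary. A gene was called when its adjusted p from limma with Benjamini-Hochberg adjustment over all 18193 genes was under 0.05. By this rule 9.72% of all genes were higher and 12.1% lower in bone metastasis. The array median, taken over all probe sets, was 5.17 on average in primary tumours and 5.31 in metastases. A signal under it is close to the floor of these arrays, and a fold from such a group is not exact.

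Markers of other cells differed between the groups as well, and these values stand beside every channel result below. All 16 measured sensory neuron markers were called higher in metastases, among them Nefl, a neurofilament of large axons (log2 fold 8.05, SE 0.31), Stmn3 (6.41, SE 0.41) and Pirt (6.17, SE 0.50). Their mean log2 signal ran from 4.67 to 4.72 on primary arrays and from 7.77 to 9.72 on metastasis arrays. Of 9 glial markers, S100b (3.55) and Cdh19 (0.86) were higher and Egr2 was lower (-2.02). Of 12 skeletal muscle markers, Pvalb (1.48) and Tnnt3 (0.75) were higher, while the list mean stayed at 4.97 to 5.41 on metastasis arrays, with 7 of the 12 under the array median in both groups. Of 8 vascular mural markers, Rgs5 (1.87), Notch3 (0.99) and Cspg4 (0.63) were higher. Macrophage markers were lower in 8 of 9 cases, led by Mrc1 (-4.21), and 6 of 9 B lineage and 6 of 9 granulocyte precursor markers were higher, led by Ebf1 (6.98) and Ngp (6.33). Of 11 epithelial markers of the labelled tumour cells Krt19 (-3.36) and Cldn4 (-1.55) were lower, and the list mean was 7.65 to 8.49 in primary tumours and 6.07 to 7.65 in metastases. Of 5 measured erythroid markers limma called 0, with 1 at an unadjusted p under 0.05. The actin control lost 1.08 to 1.90 log2 units from its 3' to its 5' probe set on primary arrays and 4.55 to 6.18 on metastasis arrays. The part of cell content and of RNA quality in the channel results was not tested. In such bulk samples fewer cells of a type and less RNA per cell cannot be told apart.

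**Figure D1:**
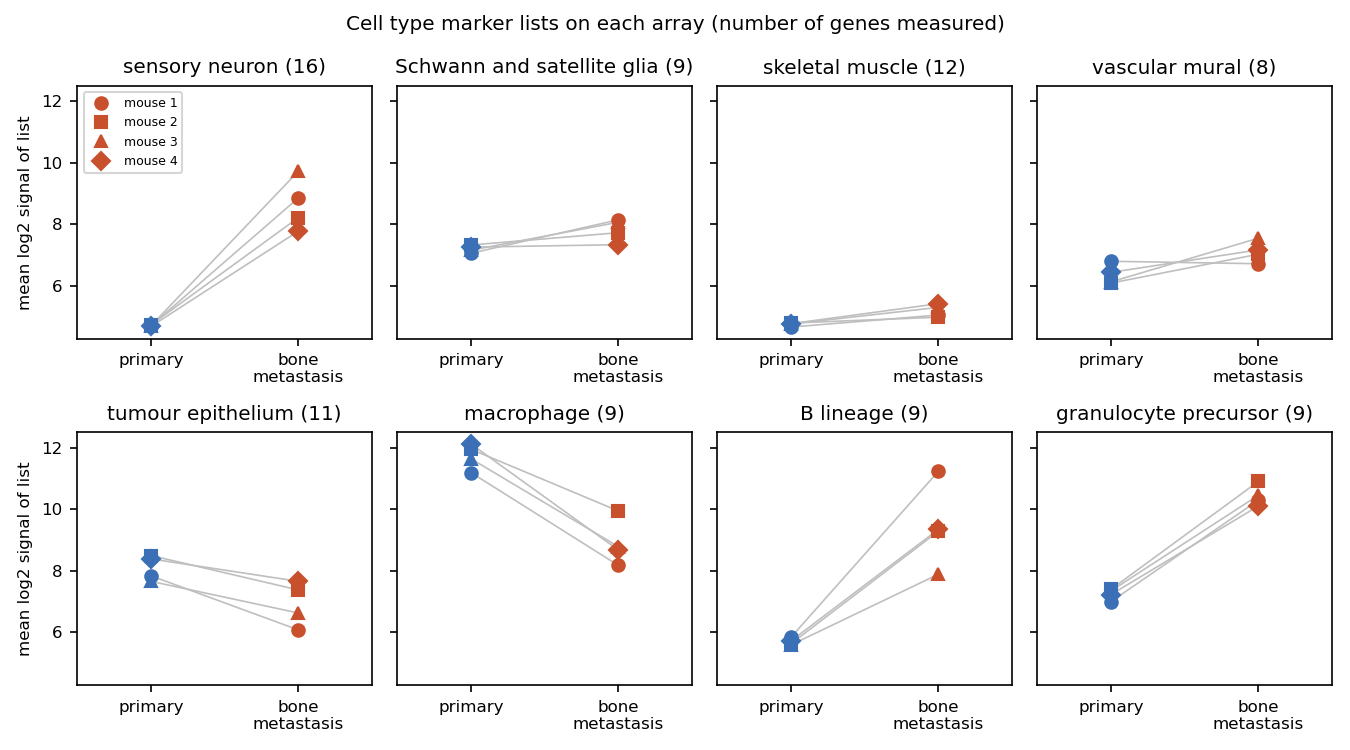
Mean log2 signal of 8 cell type marker lists, without the erythroid one (y axis), on each of the 4 primary and 4 bone metastasis arrays (x axis), with a symbol and a grey line for each mouse. The sensory neuron list lies at 4.67 to 4.72 on primary arrays and at 7.77 to 9.72 on metastasis arrays, highest in mouse 3 and lowest in mouse 4.

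Channel genes were far more often higher than lower in bone metastases. Of the 121 genes, 34 (28.1%) were called higher and 2 (1.65%) lower, against 9.72% and 12.1% of all genes, and 85 were not called. The median log2 fold of the 121 genes was 0.40, against 0.09 over all genes tested. Each of the 34 was higher in all 4 mice on the probe set used. They include Kcnn4, counted by its brightest probe set, while its other probe set was called lower (-2.12). At least a 2-fold difference was reached by 23 of the rises and 1 of the falls, against 6.04% of all genes higher and 9.88% lower by that rule. In 49 of the 121 genes every metastasis array lay above every primary array, and in 3 (Kcnk5, Kcnk13 and Kcnk2) every one lay below, against 15.2% and 14.2% of all genes.

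The mean over 8 arrays was under the mean array median of 5.24 in 64 of the 121 genes, of which 10 were called higher and 0 lower by limma, against 4.26% and 1.11% of all genes that dim. Among the 57 brighter members 24 were called higher and 2 lower, against 12.5% and 17.7% of all brighter genes. A rise itself lifts this mean, so nothing is read from the split. In 22 of the 34 called rises the primary mean was under the array median, and in 7 of these the metastasis mean was too. The count of 34 moved with the arrays used: it was 17 without mouse 3 and 16 without mouse 4, and 20 or 21 without any 1 of primary arrays 1 to 4, with 3.83%, 5.10% and 5.41% to 7.01% of all genes called higher. All 34 folds kept their sign in each of these fits. Over 12 fits that left out 1 array or 1 mouse, the calls of Scn7a, Kcna1, Kcnab2, Kcnh2, Kcnc4, Kcnd1, Kcnq3, Cacnb1, Cacnb4, Cacna2d3, Kcnn4 and, among the falls, Kcnk5 were never lost, and each of the other 24 was lost at least once. Metastasis arrays 1 and 2, which had the less steep control drop, against all primary arrays gave 28 rises and arrays 3 and 4 gave 69, against 10.6% and 23.1% of all genes, in a comparison chosen after seeing the data.

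**Figure D2:**
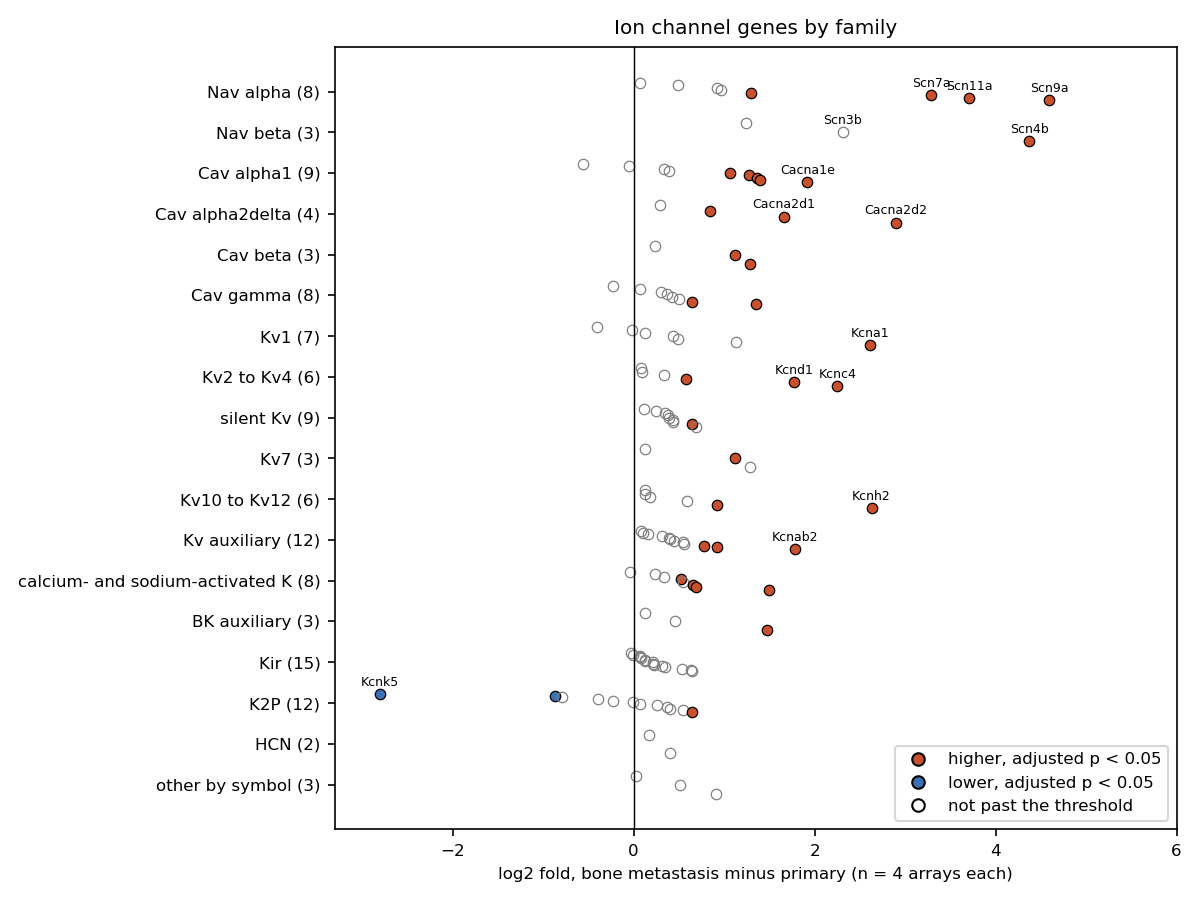
Log2 fold (x axis, bone metastasis minus primary, 4 arrays each) of each of the 121 genes, by channel family (y axis, number of genes in brackets). Orange points are the 34 genes called higher, blue points the 2 called lower (Kcnk5 and Kcnk13) and open points the 85 not called; Scn9a and Scn4b have the largest folds on the probe sets used.

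On the probe sets used, the sodium channel pore gene Scn9a had the largest log2 fold of the 121 genes. Of 8 sodium channel pore genes measured, 4 were called higher, with a median log2 fold of 1.13, and 7 were higher in all 4 mice. Scn9a encodes Nav1.7, which amplifies small depolarizations in pain-sensing neurons. Its log2 signals were 4.01, 3.87, 3.52 and 3.66 in the primary tumours of mice 1 to 4 and 7.98, 6.0, 10.69 and 8.75 in their metastases. The groups do not overlap, the primary values lie together under the array median, and the metastases spread widely with mouse 3 highest and mouse 2 lowest. The log2 fold was 4.59 (SE 0.82, 24.0-fold, limma adjusted p = 0.00623), and it was 4.42 without mouse 4, where the call was lost (limma adjusted p = 0.0542). The other 4 probe sets of Scn9a had folds of 2.14 and 1.32, both called higher, and of 1.09 and 0.30, not called, and the mean of its probe sets gave 1.89 (limma adjusted p = 0.00777).

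Scn11a encodes Nav1.9, a channel of pain-sensing neurons that shifts their resting potential. It had log2 signals of 4.80, 4.88, 4.62 and 4.04 in primary tumours and of 9.27, 7.98, 10.17 and 5.77 in metastases. All metastases were above all primary tumours, with mouse 4 well below the others. It rose by 3.71 (SE 0.82, limma adjusted p = 0.0144), and the call was lost without mouse 1 (3.46, limma adjusted p = 0.0596) and without mouse 3 (3.10, limma adjusted p = 0.0797). Scn10a encodes Nav1.8, which carries most of the action potential of small sensory neurons and is resistant to tetrodotoxin. Its signals were low throughout, 3.69 to 3.97 in primary tumours and 4.56, 5.0, 5.99 and 4.99 in metastases, without overlap. Its log2 fold was 1.30 (SE 0.28, limma adjusted p = 0.0135), with both group means under the array median, and the call was lost without mouse 2 (1.34, limma adjusted p = 0.0513) and without mouse 4 (1.30, limma adjusted p = 0.0742).

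Scn7a encodes Nax, a sodium-sensing relative of these channels found in glia and sensory neurons. Its signals were 4.61, 4.46, 4.21 and 4.17 in primary tumours and 8.07, 7.42, 9.31 and 5.83 in metastases. As for Scn11a, mouse 3 was highest and mouse 4 lowest among the metastases. Scn7a rose by 3.29 on the log2 scale (SE 0.62, limma adjusted p = 0.00765). Its other probe sets lay at 2.12, called higher, and at 0.03, not called, and the mean of its probe sets gave 1.82.

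The other 4 pore genes were not called on the probe set used. Scn8a, the channel of the nodes of Ranvier, had a log2 fold of 0.96 (95% interval 0.19 to 1.74) and Scn1a, of large-diameter and central neurons, one of 0.92 (0.09 to 1.75). Both had metastasis arrays above all primary arrays, and 2 of 5 probe sets of Scn8a and 1 of 3 of Scn1a were called higher in a fit of all probe sets. Scn2a, a channel of central axons, lay at 0.49 (0.02 to 0.95). Scn3a, a channel of the developing nervous system, lay at 0.07 (-0.35 to 0.49), with all its values between 3.37 and 4.03, under the array median.

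The auxiliary beta subunits are single-span proteins that bind the pore subunits and alter their gating. Scn4b supplies the peptide that blocks the open pore and gives rise to resurgent current. It had log2 signals of 5.33, 4.52, 4.25 and 5.05 in primary tumours and of 10.96, 7.84, 10.14 and 7.68 in metastases. The metastases fall into a higher pair, mice 1 and 3, and a lower pair, mice 2 and 4, all above the primary tumours. The log2 fold was 4.37 (SE 0.73, 20.6-fold, limma adjusted p = 0.00466), and 3.86 without mouse 3, where the call was lost (limma adjusted p = 0.0502). Scn3b had a log2 fold of 2.31 (SE 0.72, limma adjusted p = 0.0503) and was not called. It was called with the mouse as a block (limma adjusted p = 0.0411). Its metastasis signals were 5.38, 5.67, 8.95 and 5.95, so that mouse 3 stood apart. Scn3b was nonetheless called without metastasis array 3 (1.49, limma adjusted p = 0.00795) and without mouse 3 (1.59, limma adjusted p = 0.0227). The other probe set of Scn3b lay at 0.02 and was not called. Scn2b had a log2 fold of 1.24 (0.25 to 2.23), with metastasis signals of 7.99, 5.83, 7.20 and 6.24 against 5.24 to 5.80 in primary tumours.

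**Figure D3:**
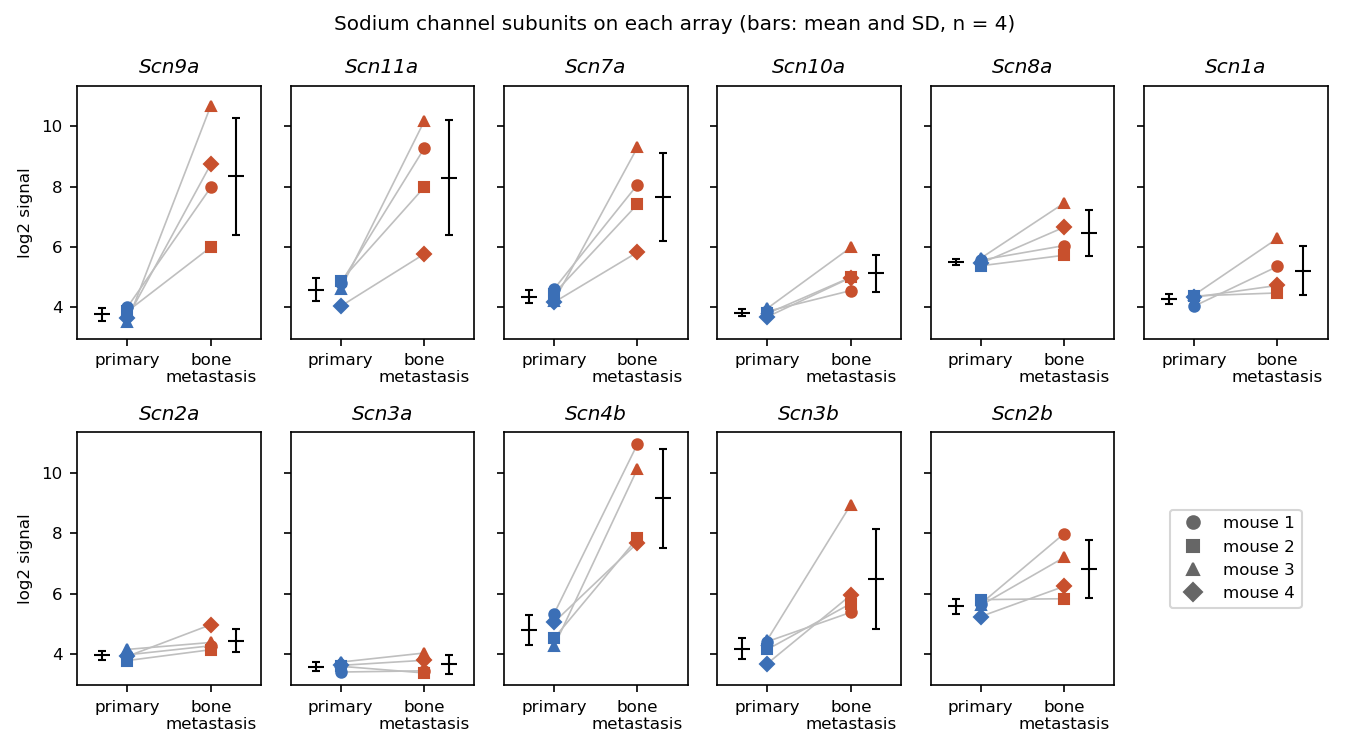
Log2 signal (y axis) of the 8 sodium channel pore genes and 3 beta subunit genes in primary tumours (blue) and bone metastases (orange), with a symbol and a grey line for each mouse and bars for the mean and SD (n = 4). Scn9a, Scn11a, Scn7a and Scn4b lie at 3.52 to 5.33 in primary tumours and at 5.77 to 10.96 in metastases, and Scn3a stays between 3.37 and 4.03.

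The 4 pore genes that rose lie in 2 gene clusters. In the RefSeq annotation of mouse assembly GRCm38.p6, Scn9a lies directly between Scn1a and Scn7a on chromosome 2, with 0 protein-coding genes between neighbours, and Scn10a lies directly beside Scn11a on chromosome 9. Scn3a and Scn2a, which were not called, lie in the chromosome 2 cluster too, as does Scn1a.

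The promoter windows of the sodium channel genes known from pain-sensing neurons, of Scn4b, and of the potassium channel genes with the largest rise (Kcnh2) and the largest fall (Kcnk5) on the probe sets used are shown next, to set their base composition side by side. Each window runs from 250 bases before to 50 bases after the gene's start in RefSeq, 5' to 3' on the gene's strand, in assembly GRCm38.p6. They lie at chr2:66634913-66635212 on the minus strand for Scn9a, chr9:119718983-119719282 (minus) for Scn10a, chr9:119825407-119825706 (minus) for Scn11a, chr9:45138374-45138673 (plus) for Scn4b, chr5:24329542-24329841 (minus) for Kcnh2 and chr14:20181733-20182032 (minus) for Kcnk5. Capitals mark matches, on either strand, to the GC box (GGGCGG), the CCAAT box (CCAAT), the TATA box (TATAAA) and the core of the element bound by the neuronal repressor REST.
Scn9a: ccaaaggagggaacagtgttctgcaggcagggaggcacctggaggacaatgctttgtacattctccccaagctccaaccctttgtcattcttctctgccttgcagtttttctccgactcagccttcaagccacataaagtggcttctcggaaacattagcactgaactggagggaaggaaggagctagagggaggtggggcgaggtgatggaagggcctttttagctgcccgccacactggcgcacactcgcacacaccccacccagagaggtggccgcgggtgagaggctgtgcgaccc
Scn10a: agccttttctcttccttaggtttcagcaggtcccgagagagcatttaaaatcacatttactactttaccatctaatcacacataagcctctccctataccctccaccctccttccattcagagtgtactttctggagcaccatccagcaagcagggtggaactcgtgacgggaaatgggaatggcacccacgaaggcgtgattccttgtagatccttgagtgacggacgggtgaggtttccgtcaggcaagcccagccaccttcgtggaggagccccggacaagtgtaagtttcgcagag
Scn11a: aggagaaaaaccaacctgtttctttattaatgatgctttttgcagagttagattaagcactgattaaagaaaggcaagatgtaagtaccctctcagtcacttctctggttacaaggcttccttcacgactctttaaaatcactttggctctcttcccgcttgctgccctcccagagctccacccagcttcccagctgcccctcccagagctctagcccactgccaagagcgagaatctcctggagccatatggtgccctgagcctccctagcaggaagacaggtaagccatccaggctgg
Scn4b: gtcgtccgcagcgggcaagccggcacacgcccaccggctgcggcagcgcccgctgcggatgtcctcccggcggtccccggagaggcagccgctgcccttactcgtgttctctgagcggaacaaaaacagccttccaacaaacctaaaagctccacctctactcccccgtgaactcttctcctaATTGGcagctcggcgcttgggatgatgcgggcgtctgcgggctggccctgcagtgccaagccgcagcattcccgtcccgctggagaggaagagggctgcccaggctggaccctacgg
Kcnh2: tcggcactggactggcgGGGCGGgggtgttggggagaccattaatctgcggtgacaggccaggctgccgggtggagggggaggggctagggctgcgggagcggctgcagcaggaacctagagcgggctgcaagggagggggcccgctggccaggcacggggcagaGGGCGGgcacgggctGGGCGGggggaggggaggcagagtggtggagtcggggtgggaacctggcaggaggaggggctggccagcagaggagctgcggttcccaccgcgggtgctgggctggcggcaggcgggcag
Kcnk5: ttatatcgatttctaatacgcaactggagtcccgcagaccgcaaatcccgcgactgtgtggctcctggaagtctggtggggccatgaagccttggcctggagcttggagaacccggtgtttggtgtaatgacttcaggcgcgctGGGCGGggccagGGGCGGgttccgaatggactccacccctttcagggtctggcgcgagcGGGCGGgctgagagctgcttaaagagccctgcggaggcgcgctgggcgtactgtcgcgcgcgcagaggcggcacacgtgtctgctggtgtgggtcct

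The 3 sodium channel pore windows held none of these letters, with 9, 11 and 3 CpG dinucleotides in Scn9a, Scn10a and Scn11a. The Scn4b window held 1 CCAAT box on its reverse strand and 26 CpG dinucleotides, and the Kcnh2 and Kcnk5 windows 3 GC boxes each with 19 and 26 CpG dinucleotides. RefSeq windows were matched for 92 of the 121 genes, 127 windows in all. Of these 45.7% held a GC box, against 35.7% of all 32851 windows, 29.1% a CCAAT box, against 37.4%, and 5.51% a TATA box, against 13.6%. The REST core was in 0 of the 127 windows and in 0.0365% of all windows. These shares describe letters in these windows only.

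Calcium channel genes also rose on balance. Of 9 pore subunit genes 5 were called higher, with a median log2 fold of 1.07. Cacna1b encodes the N-type channel that triggers transmitter release from sensory terminals. It had log2 signals of 5.31, 5.33, 5.21 and 5.14 in primary tumours and 6.94, 6.03, 6.78 and 6.31 in metastases. The groups are clearly apart and the spread within each is small. Cacna1b rose by 1.27 (SE 0.21, limma adjusted p = 0.0048), it was 1.17 without mouse 3, where the call was lost (limma adjusted p = 0.0502), and 3 of its 4 probe sets were called higher. Cacna1e, the R-type channel, had the largest fold of the pore subunits, 1.92 (SE 0.48), with metastasis signals of 8.93, 7.54, 6.23 and 7.46 against 5.46 to 5.79 in primary tumours. Here mouse 1 was highest and mouse 3 lowest. The call of Cacna1e was lost without any 1 of primary arrays 1 to 4 and without mouse 2 or mouse 4 (limma adjusted p = 0.0525 to 0.112). Cacna1h, a T-type channel of sensory neurons that opens near rest, had a log2 fold of 1.07 (SE 0.21), and its call was lost without mouse 2 (0.98, limma adjusted p = 0.0522). The other probe set of Cacna1h lay at 0.44 and was not called, and the mean of its probe sets gave 0.75 (limma adjusted p = 0.0315). Cacna1c, an L-type channel of heart, smooth muscle and neurons, had a log2 fold of 1.40 (SE 0.42, limma adjusted p = 0.0442), with metastasis signals of 6.22, 6.25, 8.19 and 7.21. The call of Cacna1c was lost after scaling the arrays to a common median (1.26, limma adjusted p = 0.0573), and in 10 of the 12 fits with 1 array or mouse left out, except those without metastasis array 1 or 2. Cacna1s, the voltage sensor of skeletal muscle, rose by 1.36 (SE 0.40, limma adjusted p = 0.0416) beside low muscle markers, with metastasis signals of 5.06, 7.07, 5.35 and 5.57, and it was not called with the mouse as a block (limma adjusted p = 0.0694) or without any 1 of primary arrays 1 to 4, metastasis arrays 3 and 4 or mice 3 and 4 (limma adjusted p = 0.0584 to 0.15). Cacna1a, the P/Q-type channel of central and motor terminals, lay at -0.05 (95% interval -0.50 to 0.41) and Cacna1d, an L-type channel that opens at low voltage, at -0.56 (-1.74 to 0.61).

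Alpha2delta subunits carry calcium channels to the membrane, and some of them are the targets of gabapentin. Of 4 genes 3 were called higher. Cacna2d2 had log2 signals of 5.42, 5.17, 5.42 and 5.09 in primary tumours and 8.03, 6.67, 9.88 and 8.11 in metastases. Mouse 3 was highest and mouse 2 lowest, the order of Scn9a at both ends. The log2 fold was 2.90 (SE 0.57, 7.46-fold, limma adjusted p = 0.00874), the call was lost without mouse 4 (2.86, limma adjusted p = 0.0638), and its 2 other probe sets were not called. Cacna2d1 rose by 1.66 (SE 0.34, limma adjusted p = 0.0111), from 4.31 to 4.74 in primary tumours to 6.91, 5.28, 6.66 and 5.80 in metastases. The call of Cacna2d1 was lost without mouse 3 (1.50, limma adjusted p = 0.0848). Cacna2d3 rose by 0.84 (SE 0.13), with group means of 3.95 and 4.79, both under the array median. Cacna2d4, known from the retina, had 0.29 (-0.16 to 0.74).

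The cytosolic beta subunits, which chaperone calcium channel pores, were higher in 2 of 3 cases. Cacnb4 rose by 1.28 (SE 0.16, limma adjusted p = 0.00155) and Cacnb1 by 1.12 (SE 0.17) on 1 of its 4 probe sets, while Cacnb2 had 0.24 (-0.14 to 0.61). The 3 other probe sets of Cacnb1 were not called (0.15, -0.01 and 0.36), and with the mean of probe sets its call was lost (0.41, limma adjusted p = 0.0829). Of 8 gamma subunits, several of which are trafficking partners of AMPA-type glutamate receptors, Cacng5 rose by 1.35 (SE 0.40, limma adjusted p = 0.0417) and Cacng4 by 0.65 (SE 0.19). The call of Cacng5 was lost in 9 of the 12 fits, holding only without metastasis array 2, 3 or 4, and that of Cacng4 in 11, holding only without metastasis array 1. Cacng4 was not called with the mouse as a block (limma adjusted p = 0.0921). The muscle subunit Cacng1 had 0.42 (-0.12 to 0.97). Cacng7 was bright in both groups, 9.29 ± 0.07 in primary tumours and 9.05 ± 0.80 in metastases (SD, n = 4 each), and had a log2 fold of -0.23 (-1.04 to 0.57).

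Of the 7 Kv1 potassium channel genes 1 was called higher on the probe set used, against 9.72% of all genes. Kcna1 encodes a low-threshold channel that clusters beside the nodes of myelinated axons and limits repetitive firing. Its log2 signals were 5.41, 5.38, 5.40 and 5.26 in primary tumours and 8.48, 6.75, 9.15 and 7.50 in metastases. Primary tumours hardly varied, and metastases of mice 3 and 1 were higher than those of mice 4 and 2. The log2 fold was 2.61 (SE 0.46, 6.11-fold, limma adjusted p = 0.00575), and 3 of its 4 probe sets were called higher, at 2.61, 3.02 and 4.20. Its partner in the same axonal channels, Kcna2, was not called on the brightest probe set (-0.02, 95% interval -0.37 to 0.33). On another probe set its signals were 4.55, 4.12, 4.28 and 4.63 in primary tumours and 6.91, 6.56, 8.80 and 6.14 in metastases, a log2 fold of 2.71 (SE 0.51, limma adjusted p = 0.00862 over all probe sets). Of the 3 less bright probe sets of Kcna2, 2 were called higher (2.71 and 2.18) and 1 was not (0.17). Kcna3, the channel of T lymphocytes and macrophages, had -0.40 (-0.94 to 0.14). Kcna5, a channel of heart and smooth muscle, had a log2 fold of 1.13 (SE 0.73) that came from mouse 1 alone, whose metastasis signal was 7.32 against 3.67 to 4.09 in the other metastases and 3.47 to 3.76 in primary tumours. Kcna5 was singled out after its values were seen.

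Of 6 measured Kv2 to Kv4 genes 3 were higher. Kcnc4, a fast-inactivating channel that shapes the spikes of sensory neurons, rose by 2.25 (SE 0.46, limma adjusted p = 0.0105), from 5.46 to 5.90 in primary tumours to 7.85, 7.29, 9.47 and 7.20 in metastases. Kcnd1, an A-type channel, rose by 1.77 (SE 0.28, limma adjusted p = 0.00379), from 5.44 to 6.01 in primary tumours to 8.15, 6.80, 7.59 and 7.55 in metastases. Both separate the groups fully. Kcnc2 rose by 0.58 at signals under the array median, and was not called with the mouse as a block (limma adjusted p = 0.0718). Kcnc1, a fast-spiking channel, had 0.33 (-0.25 to 0.92) on its brightest probe set, and its 3 other probe sets were called higher at 0.87, 0.94 and 1.17. Kcnd3, an A-type channel of heart and neurons, had 0.08 (-0.28 to 0.44) on the brightest probe set and 0.98 and 0.64 on 2 called ones.

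Among the ether-a-go-go channels Kcnh2, which encodes the channel that repolarizes the heart, rose by 2.63 (SE 0.41, 6.20-fold, limma adjusted p = 0.00351). Its signals were 5.24, 5.02, 4.96 and 5.0 in primary tumours and 7.83, 6.49, 8.76 and 7.67 in metastases. Mouse 3 was again highest and mouse 2 lowest. Kcnh1 rose by 0.92 (SE 0.25), with a call lost in 8 of the 12 fits with an array or mouse left out, and Kcnh8 had 0.13 (-0.21 to 0.46). Of the 3 Kv7 genes Kcnq3, a subunit of the M-current that damps firing, rose by 1.12 (SE 0.20). Kcnq5, another M-current subunit, had 1.28 (0.24 to 2.32) with a metastasis signal of 6.90 in mouse 1 and 4.48 to 5.14 in the others. Kcnq1, the channel of heart and epithelia, had 0.12 (-0.55 to 0.78). Against all primary arrays Kcnq1 was called lower with metastasis arrays 1 and 2 (-0.42, limma adjusted p = 0.044). With metastasis arrays 3 and 4 it was called higher (0.66, limma adjusted p = 0.0112). Both comparisons were chosen after seeing the data.

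Silent Kv subunits, which form channels only with Kv2 partners, were called higher in 1 of 9 cases, against 9.72% of all genes. The called gene was Kcns2 (0.65, SE 0.16), at signals under the array median and not with the mouse as a block (limma adjusted p = 0.0574). Kcns1, a subunit of sensory neurons, had 0.69 (0.01 to 1.37), and Kcnf1 had 0.11 (-0.48 to 0.71). Of 12 auxiliary subunits of Kv channels 3 were called higher. Kcnab2, the cytosolic beta subunit that attaches to Kv1 channels in axons, rose by 1.78 (SE 0.35, limma adjusted p = 0.00923), from 6.98, 6.57, 6.59 and 7.24 in primary tumours to 8.55, 8.35, 9.65 and 7.95 in metastases. All metastases lay above all primary tumours, with mouse 3 highest and mouse 4 lowest. The other probe set of Kcnab2 lay at 0.74 and was not called, and the mean of its probe sets gave 1.26 (limma adjusted p = 0.0177). Kcnip2, a calcium-binding partner of Kv4 channels, rose by 0.92 (SE 0.26) and Kcnab1 by 0.78 (SE 0.22). Each of these calls was lost in 9 of the 12 fits with an array or mouse left out, that of Kcnip2 also with the mouse as a block (limma adjusted p = 0.0808), and that of Kcnab1 after scaling to a common median (0.63, limma adjusted p = 0.0625). Kcne3, an epithelial subunit, had 0.08 (-0.23 to 0.40).

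**Figure D4:**
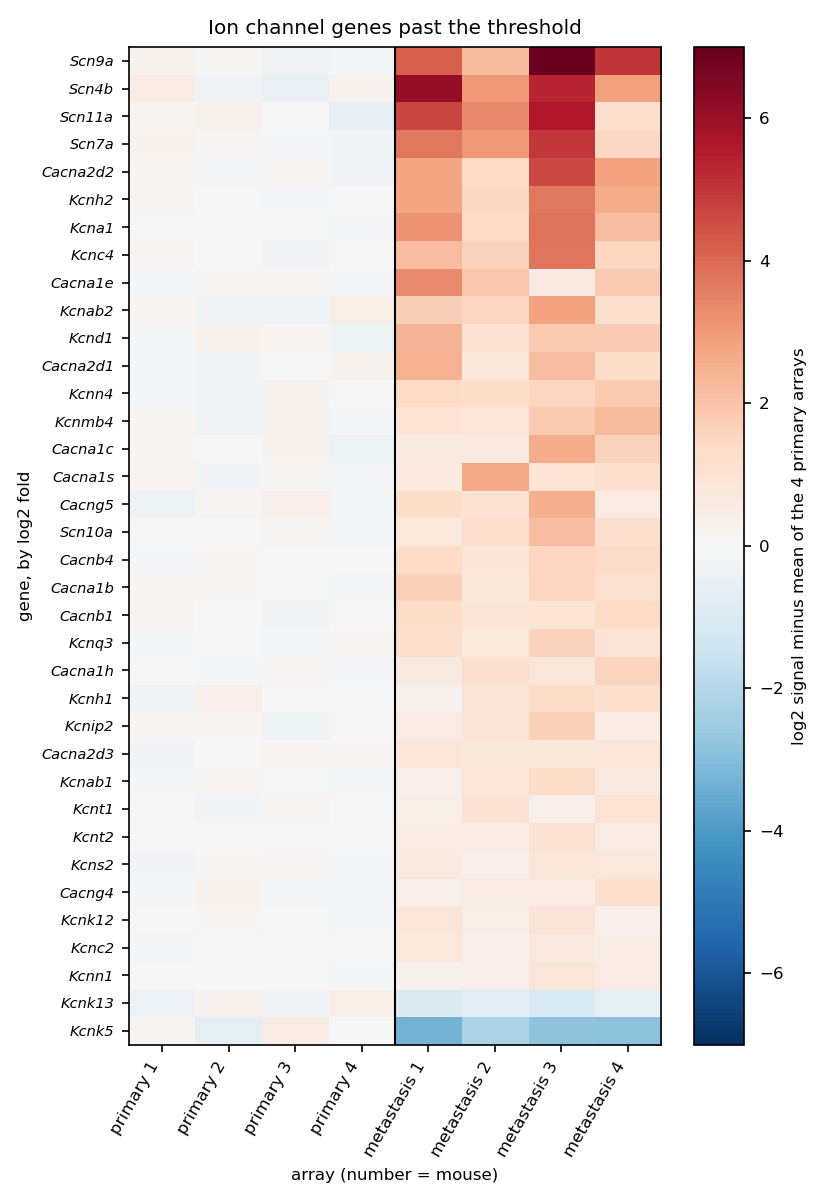
Log2 signal minus the mean of the 4 primary arrays (colour) for the 34 ion channel genes called higher and the 2 called lower (rows, by log2 fold) on each array (columns, number = mouse). Of the 34 genes 20 have their highest metastasis signal in mouse 3, 7 in mouse 1, 5 in mouse 4 and 2 in mouse 2, and Kcnk13 and Kcnk5 at the foot are lower on all metastasis arrays.

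Of 8 potassium channels opened by calcium or sodium 4 were called higher on the probe set used, among them Kcnn4, whose probe sets oppose each other. Kcnn4 encodes the intermediate-conductance channel of red cells, lymphocytes, macrophages and epithelia, and was bright in every sample. On the probe set used its signals were 11.23, 11.11, 11.58 and 11.31 in primary tumours and 12.68, 12.59, 12.83 and 13.14 in metastases, a log2 fold of 1.50 (SE 0.17, limma adjusted p = 0.00123). On its other probe set they were 8.73, 8.54, 9.82 and 9.76 in primary tumours and 7.78, 7.56, 6.60 and 6.44 in metastases, a fold of -2.12 (SE 0.41, limma adjusted p = 0.0095 over all probe sets). Each probe set separates the groups fully and in the opposite direction, so no direction is read for this gene. The counts of rises hold it only by the rule of the brightest probe set. The fall on the second probe set is steeper in mice 3 and 4, the pair with the steeper actin control drop in metastases, and the part of RNA quality in it was not tested. Kcnt1 and Kcnt2, sodium-activated channels of neurons, rose by 0.69 and 0.66, and the small-conductance channel Kcnn1 rose by 0.52 (SE 0.16, limma adjusted p = 0.0493). The calls of these 3 genes were lost with the mouse as a block (limma adjusted p = 0.0998, 0.056 and 0.11). Both group means of Kcnt2 and of Kcnn1 were under the array median. Kcnn2, another small-conductance channel, had -0.04 (-0.36 to 0.27), and Kcnma1, the large-conductance BK channel, had 0.24 (-0.23 to 0.70) with 1 of 5 probe sets called higher at 0.84. Of the BK beta subunits the neuronal Kcnmb4 rose by 1.47 (SE 0.31, limma adjusted p = 0.0121), from 5.20 to 5.73 in primary tumours to 6.45, 6.34, 7.29 and 7.69 in metastases, and the smooth muscle subunit Kcnmb1 had 0.13 (-0.27 to 0.52). The call of Kcnmb4 was lost without mouse 3 (limma adjusted p = 0.0744) and without mouse 4 (limma adjusted p = 0.0565).

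Inward rectifiers and background channels hold the resting potential. Of 15 inward rectifier genes limma called 0, with 2 at an unadjusted p under 0.05, and their log2 folds ran from -0.03 to 0.64. The largest was that of Kcnj8, a vascular mural channel, with 0.64 (-0.06 to 1.33), and the lowest that of the kidney channel Kcnj1 with -0.03 (-0.39 to 0.32). Of 12 two-pore-domain channel genes 2 were lower and 1 higher, against 12.1% and 9.72% of all genes. Kcnk5 encodes TASK-2, a background channel of epithelia that responds to external pH. It had log2 signals of 9.16, 8.28, 9.52 and 8.99 in primary tumours and of 5.66, 6.79, 6.20 and 6.11 in metastases. Primary tumours lay well above the array median and metastases near it, with no overlap. The log2 fold was -2.80 (SE 0.32, 6.96-fold lower, limma adjusted p = 0.00114), and the second probe set of Kcnk5 was called lower at -0.53. In the same metastases 8 of 9 macrophage markers and 2 of 11 epithelial markers were called lower, and the part of these cells in this fall was not tested. Kcnk13, a background channel of microglia and macrophages, was lower by a log2 fold of -0.87 (SE 0.22, limma adjusted p = 0.0244), with signals of 5.82 to 6.69 in primary tumours and 5.20 to 5.55 in metastases. Its call was lost after scaling to a common 75th percentile (-0.67, limma adjusted p = 0.0813), and without primary array 2 or 4, metastasis array 3, or mouse 2, 3 or 4 (limma adjusted p = 0.0614 to 0.099). The second probe set of Kcnk13 lay at 0.22 and was not called, and the call was also lost with the mean of probe sets (-0.33, limma adjusted p = 0.137) and with array weights (-0.95, limma adjusted p = 0.0782). Kcnk1, an epithelial background channel, had -0.79 (-1.85 to 0.28), and its metastasis signals were 5.54, 7.54, 7.38 and 7.48, so that mouse 1 stood apart. Kcnk12 rose by 0.64 (SE 0.17, limma adjusted p = 0.0313) at signals under the array median, and the call was lost with the mouse as a block (limma adjusted p = 0.0663) and in 10 of the 12 fits with an array or mouse left out. The pacemaker channels Hcn2 and Hcn3 had 0.17 (-0.22 to 0.56) and 0.40 (-0.01 to 0.81). Kcnq1ot1, the imprinted antisense transcript of the Kcnq1 locus, had 0.91 (0.26 to 1.56, limma adjusted p = 0.0519) and Kcnmb4os1 0.03 (-0.31 to 0.36).

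The probe sets of a gene often disagreed. Of 121 genes 72 had more than 1 probe set, and 24 of the 34 called rises were among them. In a fit of all 34945 probe sets with 1 symbol, 59 of the 254 channel probe sets (23.2%) were called higher, against 8.72% of all, and 4 lower. For 8 of the 24 rises another probe set was called higher too, for 6 another lay below 0, and for 1 (Kcnn4) another was called lower. For Kcna2, Kcna6, Kcnc1, Kcnd3, Kcnma1, Kcnq5, Scn1a and Scn8a, not called on the brightest probe set, another probe set was called higher. Probe sets of a gene also differed in the order of mice. On a second called probe set of Scn9a the metastasis signals were 5.74, 5.24, 7.43 and 5.82, with mouse 3 highest and mouse 2 lowest as on the first, and on another called one they were 6.35, 5.06, 5.97 and 4.65, with mouse 1 highest and mouse 4 lowest. With the mean of a gene's probe sets in place of the brightest, the log2 fold was over 1.5 times nearer to 0 but still called for Kcnk5 (-1.66), Kcnc4 (1.23), Cacna2d2 (1.18), Cacna1e (1.06), Kcnd1 (0.92), Cacna2d1 (0.80), Cacna1c (0.76) and Kcnq3 (0.74), beside Scn9a and Scn7a. The call was lost for Cacng5 (0.65), Kcnip2 (0.41), Cacng4 (0.35), Kcns2 (0.30) and Kcnn1 (0.28), with limma adjusted p from 0.0588 to 0.16, beside Cacnb1, Kcnk13 and Kcnn4.

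**Figure D5:**
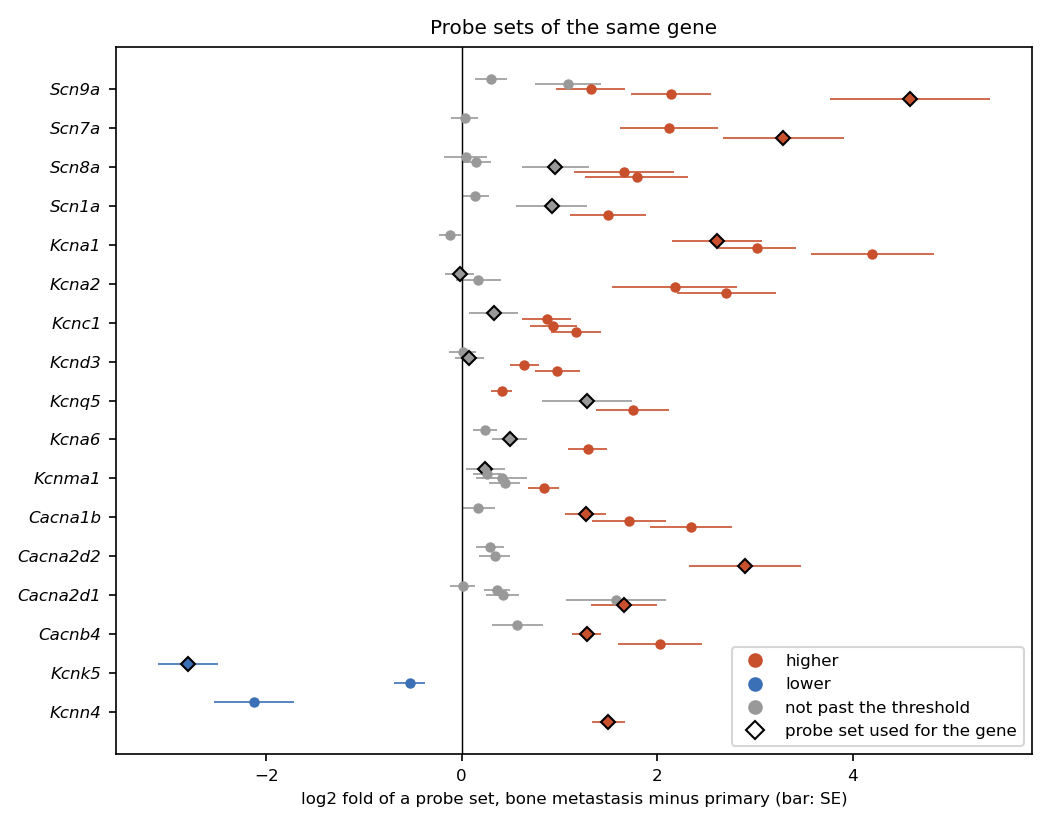
Log2 fold with its SE (x axis, bone metastasis minus primary) of every probe set of 17 ion channel genes (y axis), with a diamond for the probe set used and colour for the call in the fit of all probe sets. Kcna1 has 3 probe sets called higher and 1 at -0.12, Kcna2 and Kcnc1 rise only on probe sets other than the one used, and the probe sets of Kcnn4 lie at 1.50 and -2.12.

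Proteins that anchor, cluster or modulate channels, together with the sodium leak channel Nalcn, were taken as a list outside the symbol rule. Of 33 measured genes 12 were called higher and 0 lower, against 9.72% and 12.1% of all genes. Their median log2 fold was 0.63, against 0.09 over all genes tested. By limma 0 of the 33 genes were lower at an unadjusted p under 0.05 as well, and Dlg1 (-1.05, SE 0.47) and Nedd4l (-0.88, SE 0.64) had the lowest folds. Cntnap2, which holds Kv1 channels beside the nodes of axons, rose by 4.97 (SE 0.72, 31.3-fold, limma adjusted p = 0.00267), from 4.02, 3.33, 3.53 and 3.80 in primary tumours to 8.63, 6.86, 10.89 and 8.16 in metastases. The order of mice is that of Kcna1 at both ends, mouse 3 highest and mouse 2 lowest. Cntn1, an axonal adhesion protein that binds sodium channels, rose by 4.47 (SE 0.59) and Fgf13, an intracellular factor that binds the tail of sodium channels, by 4.44 (SE 0.87). Fgf12, a relative of Fgf13, rose by 3.59 (SE 0.73), Dpp6, which speeds Kv4 channels, by 2.68 (SE 0.51), and Ank3, the ankyrin that anchors sodium channels in axons, by 1.64 (SE 0.29). The sodium leak channel gene Nalcn rose by 1.10 (SE 0.19). The count of 12 fell to 6 without mouse 3, a fit in which 3.83% of all genes were called higher. Fgf13 and Fgf12 had their lowest metastasis signals, 5.42 and 5.09, in mouse 4, in which the mean of the sensory neuron list was lowest too. Cntnap2, Cntn1, Dpp6, Ank3 and Nalcn had their lowest metastasis signals in mouse 2 (6.86, 7.13, 6.78, 7.37 and 4.14).

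The order of mice varied between the channel genes. The sensory neuron list had its highest metastasis mean in mouse 3 (9.72), then mouse 1 (8.85), mouse 2 (8.21) and mouse 4 (7.77). Scn7a and Scn11a followed this order in all 4 mice. Scn9a, Kcnh2 and Cacna2d2 had mouse 4 above mouse 2, and Cacna1e and Scn4b had mouse 1 highest. With 4 metastases no correlation was computed. Over mice 1 and 2 the median log2 fold of the 121 genes was 0.19 and over mice 3 and 4 it was 0.68, against 0.00 and 0.16 for all genes tested, and all 34 called genes were above 0 in both pairs. Scn4b, Scn11a and Scn7a had folds of 4.48, 3.78 and 3.21 in mice 1 and 2 and of 4.26, 3.64 and 3.38 in mice 3 and 4, while Scn9a had 3.05 and 6.12. The metastases of mice 1 and 2 had actin control drops of 4.85 and 4.55, and those of mice 3 and 4 of 5.72 and 6.18.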

How the data were processed

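RNA of 4 primary tumours and 4 spine metastases was labelled with biotin in a two-cycle amplification, per the labels' protocols. The deposited values are log2 signals made by the authors with RMA, per the submitters' processing notes; its version and any later step are not stated in the labels. Of 45101 probe sets, 34945 carried 1 symbol in the platform annotation and were used; 64 control, 932 multi-symbol and 9160 unnamed ones were left out. Identifiers of 34741 matched the RefSeq gene table of GRCm38.p6, which changed 0 symbols.

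limma 3.58.1 (lmFit and eBayes, two-sided; R 4.3.3, Python 3.11.15) compared the groups over 18193 genes without a block, a dim filter or other covariates. Intervals are 95% intervals of single genes. Arrays carry no read depth, and 4 arrays a group limit the precision; the median SE of the channel folds was 0.22. The pipeline was tested on simulated data in which each gene had the same spread in both groups. That test did not cover genes that varied more in metastases, such as Scn9a (SD 0.22 in primary tumours and 1.94 in metastases). Same-numbered arrays come from 1 mouse, per the series' text; deviations from the group means correlated at 0.166, 0.007, 0.020 and -0.108 across genes in mice 1 to 4. Alternatives changed the scaling, the filter, the probe set, the weights, the variance model, the block and the arrays used. Named genes were the 15 largest rises and falls past the threshold, the extremes of each family, all measured sodium and Hcn genes and a fixed list. Other called channel and partner genes, and Kcna5, Dlg1 and Nedd4l, were named after their values were seen. Members and lists were chosen with earlier results of these data known.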

Additional observations from a re-analysis of the deposited data

Results flagged for a closer look

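An array was set aside for a closer look where it lay far from the other 3 of its group. Of 114 groups of 4 arrays checked, 57 genes in each of 2 tissues, 5 met this, and chance alone gives about 1 in 20. Scn3b had a log2 signal of 8.95 in the metastasis of mouse 3, against 5.38 to 5.95 in the other metastases. Kcnk1 had 5.54 in the metastasis of mouse 1, against 7.38 to 7.54. Kcnf1 had 5.76 in the metastasis of mouse 4, against 4.60 to 4.76. Kcna3 had 5.53 in the primary tumour of mouse 4, against 4.65 to 4.79. Kcne3 had 3.26 in the primary tumour of mouse 1, against 3.35 in each of the others.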

How the results depend on the processing

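Direction held for all 34 called rises under every alternative with the same probe sets, apart from the filter on dim genes, which tested only 24 of them. It held for 33 of the 34 with the most variable probe set or the mean of probe sets, the exception being Kcnn4 (-2.12 and -0.31). With the filter on dim genes the 24 tested rises kept direction and call. That filter used the mean over 8 arrays, which a rise itself lifts, so a gene can pass through its metastasis signal alone. Nothing is read from its result. That filter gave 26 rises in all, against 12.5% of the 12086 genes it kept. Of the 34, 25 kept their call with the mouse as a block (replicate block, 26 calls in all), 24 after scaling to a common median, 25 after quantile normalization and 33 with array weights. In these settings, in that order, 7.63%, 7.12%, 10.4% and 9.95% of all genes were called higher. The rises numbered 16 to 38 when 1 array or mouse was left out, against 3.83% to 11.6% of all genes. In mice 1 and 2 alone they numbered 0 (29 of 121 genes at an unadjusted p under 0.05 by limma, and 0 calls among all genes). They numbered 22 in mice 3 and 4 alone, against 8.94% of all genes. For metastasis arrays 3 and 4 against all primary arrays they numbered 69, against 23.1% of all genes. The falls numbered 2, 1 to 2 with 1 array or mouse left out, 1 after scaling to the 75th percentile, with the mean of probe sets, with array weights and in mice 3 and 4 alone, and 0 in mice 1 and 2 alone. They numbered 3 after scaling to a common median, after quantile normalization and with the most variable probe set. Metastasis arrays 1 and 2 against all primary arrays also gave 3, with Cacng7 (-0.81, limma adjusted p = 0.00844) and Kcnq1 (-0.42, limma adjusted p = 0.044) called lower. Of all genes 708 to 2719 were called lower with 1 array or mouse left out. Partner genes rose in 6 to 14 cases with 1 array or mouse left out, in 19 with the most variable probe set, in 0 in mice 1 and 2 alone and in 20 for metastasis arrays 3 and 4 against all primary arrays; 0 to 1 fell with 1 left out, 1 with the most variable probe set, the mean of probe sets or mice 3 and 4 alone, and 2 for metastasis arrays 3 and 4. Scaling moved the median fold of all genes, from 0.09 to -0.05 (common median) and 0.30 (75th percentile), so that small folds have no firm direction; the 75th percentile turned the split of all calls to 2465 higher and 1961 lower, and the common median to 1295 and 2587.

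Among the named genes that were not called in the main fit, directions turned as follows. Other channel genes are not listed here, and some of them turned too, such as Kcnj14 (0.31 in the main fit and -0.27 over mice 1 and 2). Common median: Kcne3 -0.06, Kcnd3 -0.07, Kcnf1 -0.03, Kcnh8 -0.02, Kcnmb1 -0.02, Kcnmb4os1 -0.12, Kcnq1 -0.03 and Scn3a -0.07. Quantile normalization: Cacng7 0.10, Hcn2 -0.01, Kcnd3 -0.08, Kcnf1 -0.02, Kcnh8 -0.04, Kcnmb1 -0.04, Kcnmb4os1 -0.09 and Scn3a -0.05. The 75th percentile: Kcnj1 0.17, Kcnn2 0.16, Kcna2 0.18 and Cacna1a 0.16. The most variable probe set and the mean of probe sets: Kcna2 2.71 and 1.26 (both called higher), and Cacna1a 0.73 and 0.30. Array weights: Kcnf1 -0.02, Kcnmb4os1 -0.05, Kcnq1 -0.03, Scn3a -0.01 and Kcna2 0.02. Mice 1 and 2 alone: Hcn2 -0.03, Kcnd3 -0.10, Kcnf1 -0.24, Kcnq1 -0.40 and Scn3a -0.09. Mice 3 and 4 alone: Cacng7 0.34, Kcne3 -0.02, Kcnj1 0.09, Kcnn2 0.02, Kcnmb1 -0.11, Kcna2 0.07 and Cacna1a 0.09. Metastasis arrays 1 and 2 against all primary arrays: Hcn2 -0.04, Kcnd3 -0.05, Kcnf1 -0.21, Kcnmb4os1 -0.06, Kcnq1 -0.42 (called lower there), Scn3a -0.18 and Kcnc1 -0.0001. Metastasis arrays 3 and 4: Cacng7 0.34, Kcnj1 0.08, Kcnmb1 -0.00065, Kcna2 0.02 and Cacna1a 0.08. With 1 array or mouse left out the ranges were -0.61 to 0.03 for Cacng7, -0.07 to 0.19 for Kcnd3, -0.18 to 0.25 for Kcnf1, -0.12 to 0.06 for Kcnj1, -0.14 to 0.02 for Kcnn2, -0.07 to 0.26 for Kcnmb1, -0.05 to 0.10 for Kcnmb4os1, -0.11 to 0.33 for Kcnq1, -0.05 to 0.17 for Scn3a, -0.10 to 0.07 for Kcna2 and -0.20 to 0.06 for Cacna1a. The causes were not tested.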
